A study of Rattus norvegicus with 372 samples.

Results

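Ketoconazole at 15 µM, the higher of the 2 concentrations of this drug in the series, was compared with its vehicle in primary rat hepatocytes. The wells were chosen by their labels alone: 12 of the 372 samples held ketoconazole at 15 µM, 6 wells in each of the 2 assays described below, and in the whole transcriptome (WT) assay 9 wells held vehicle. The cells were hepatocytes of male Wistar rats kept in a collagen sandwich, that is between 2 layers of collagen, in William's medium E with bovine serum albumin, insulin, dexamethasone and epidermal growth factor, so the glucocorticoid dexamethasone was present in every group. Exposure lasted 24 h, and vehicle was 0.5% DMSO, which the ketoconazole wells contained as well. Each of the 2 batches came from 1 rat. Batch 1 had 3 ketoconazole and 3 vehicle wells and batch 2 had 3 ketoconazole and 6 vehicle wells. Other groups used below are ketoconazole at 0.6 µM (6 wells, 3 in each batch) and 13 other chemicals at their high concentration. The study as a whole exposed such cultures to 14 chemicals at 2 concentrations each, and measured the same lysates with the WT assay and with a smaller surrogate (ST) assay. Both are TempO-Seq assays, in which pairs of short probes are ligated on their target RNA and the ligated probes are sequenced and counted. The labelled cell type was checked against its markers. Of 12 listed hepatocyte markers 9 had probes matched by symbol, all 9 were read in every well, and their summed level was 31332 to 34098 CPM, the reads of a gene scaled to a fixed total per well, in the vehicle wells of batch 1 and 32517 to 36615 CPM in those of batch 2.

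Ketoconazole is an azole antifungal. It binds the haem of cytochrome P450 enzymes and blocks sterol 14-demethylase, the product of Cyp51, which removes a methyl group from lanosterol on the way to cholesterol. When sterols fall in the membrane of the endoplasmic reticulum, the carrier Scap is released from Insig proteins and takes the transcription factor SREBP2 to the Golgi apparatus for cleavage, and the cleaved factor induces the genes of cholesterol synthesis and uptake. SREBP1, the product of Srebf1, acts more on the genes of fatty acid synthesis, and the receptor LXR, which binds oxysterols, induces genes of sterol efflux.

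In the fit of both batches, 5226 of 10191 tested genes (51.3%) differed between ketoconazole 15 µM and vehicle at an adjusted p under 0.05. Of these, 2543 genes (25.0% of those tested) were higher and 2683 (26.3%) were lower with ketoconazole, and the median log2 fold change (L2FC) over all tested genes was -0.01. Most differences were small: 1168 called genes differed by an absolute L2FC of at least 1, of which 340 were higher and 828 lower. Read alone, batch 1 gave 3298 called genes (32.4%), with 1549 (15.2%) higher and 1749 (17.2%) lower, and batch 2 gave 4739 (46.5%), with 2428 (23.8%) higher and 2311 (22.7%) lower. A total of 2597 genes were called with the same sign in all 3 fits. Counts of called genes in a list are to be read against these shares. The wells of a batch are separate cultures of 1 rat's cells, so the p-values measure mainly the spread between wells, and fewer cells of a type and less RNA per cell cannot be told apart in bulk lysates. The study also assayed viability by ATP in such cultures, and those values are not used here. With the 3 or 6 wells of a rat and treatment added to 1 sample, 3656 genes were called, 3653 of them among the 5226 and in the same direction. In batch 1 the ketoconazole wells were on another plate than the vehicle wells, so plate and treatment cannot be told apart there, whereas in batch 2 they shared a plate with 3 of the 6 vehicle wells. Total counts per WT well were 5231801 to 8631993 for ketoconazole and 5492941 to 8264980 for vehicle, and the CPM of single genes below are after TMM scaling, which adjusts that total for differences in composition, whereas sums over markers and ratios of counts use the plain totals.

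All 16 tested enzymes of cholesterol synthesis, out of 20 listed, were higher with ketoconazole, with a median L2FC of 2.40. In 15 of the 16 every ketoconazole well lay above every vehicle well in both batches, a separation seen upwards in 12.9% of all tested genes. The target of the drug stood among the highest. Cyp51 was at 93.8, 103 and 94.6 CPM with vehicle and 636, 664 and 528 CPM with ketoconazole in batch 1, and 19.98 to 34.3 CPM (median 25.6) with vehicle and 244, 243 and 238 CPM with ketoconazole in batch 2. Its vehicle level was several times lower in batch 2 than in batch 1, and within each batch the groups were far apart. The rise was 7.93-fold (L2FC 2.99 ± 0.21, adjusted p = 8.86e-28), with an L2FC of 2.67 in batch 1 and 3.20 in batch 2.

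The enzymes before lanosterol rose as well. Acat2, which joins acetyl-CoA units at the start of the pathway, was at 28.4, 41.8 and 30.9 CPM with vehicle and 237, 254 and 216 CPM with ketoconazole in batch 1, and 11.8 to 17.8 CPM (median 13.4) with vehicle and 215, 184 and 207 CPM with ketoconazole in batch 2 (L2FC 3.396 ± 0.17, adjusted p = 5.46e-42). The wells of the 2 groups were widely apart, and Acat2 had the largest L2FC of the list. Hmgcs1, which makes HMG-CoA, was low but apart, at 5.17, 4.46 and 8.19 CPM with vehicle and 17.04, 13.6 and 16.2 CPM with ketoconazole in batch 1, and 2.15 to 4.20 CPM (median 3.13) with vehicle and 16.8, 17.2 and 20.1 CPM with ketoconazole in batch 2 (L2FC 2.05 ± 0.21, adjusted p = 4.63e-17). Mvk, the mevalonate kinase, had an L2FC of 1.03 (adjusted p = 3.25e-19), and Mvd, the mevalonate decarboxylase, was at 8.89, 13.4 and 9.04 CPM with vehicle and 48.7, 49.0 and 48.3 CPM with ketoconazole in batch 1, and 2.83 to 5.10 CPM (median 3.61) with vehicle and 44.7, 43.3 and 37.5 CPM with ketoconazole in batch 2 (L2FC 2.91 ± 0.17, adjusted p = 1.05e-34). Idi1, the isomerase that makes the building block dimethylallyl diphosphate, had an L2FC of 2.88 (adjusted p = 8.12e-30). Fdps, the farnesyl diphosphate synthase, was at 78.3, 65.5 and 75.7 CPM with vehicle and 609, 528 and 443 CPM with ketoconazole in batch 1, and 38.4 to 59.5 CPM (median 46.3) with vehicle and 477, 709 and 495 CPM with ketoconazole in batch 2. Its rise of 9.73-fold (L2FC 3.28 ± 0.19, adjusted p = 5.63e-37) was among the 12 largest of all genes called with one sign in all 3 fits. The squalene branch gave an L2FC of 2.02 for Fdft1, the squalene synthase, 2.23 for Sqle, the squalene epoxidase, and 2.67 for Lss, which closes the ring to lanosterol.

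After lanosterol the size of the change was uneven. Msmo1, the sterol 4-methyl oxidase that acts soon after Cyp51, was at 11.1, 15.5 and 13.5 CPM with vehicle and 61.6, 67.0 and 68.4 CPM with ketoconazole in batch 1, and 5.23 to 7.13 CPM (median 5.99) with vehicle and 77.5, 64.0 and 66.0 CPM with ketoconazole in batch 2 (L2FC 2.99 ± 0.18, adjusted p = 1.06e-34). Its ketoconazole wells were at one level in the 2 batches, far above all vehicle wells. Hsd17b7, a 3-ketosteroid reductase of the same stretch, had an L2FC of 2.58 (adjusted p = 6.62e-30) and Dhcr7, the last reductase of one branch, of 1.404 (adjusted p = 9.81e-18). Nsdhl, which works between Msmo1 and Hsd17b7, moved from 133, 154 and 138 CPM to 161, 158 and 159 CPM in batch 1 and from 87.0 to 113 CPM (median 99.98) to 137, 125 and 125 CPM in batch 2. The groups were just apart, and the L2FC of 0.28 (adjusted p = 2.90e-04) was the smallest of the list. Hmgcs1, Mvk, Idi1, Fdft1, Sqle, Lss, Hsd17b7, Dhcr7 and Nsdhl fall outside the rule for named genes and were added after their values were seen, to give the pathway in order. Tm7sf2 was under the count minimum, and Pmvk, Ebp and Sc5d had no probe matched by symbol.

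**Figure D1:**
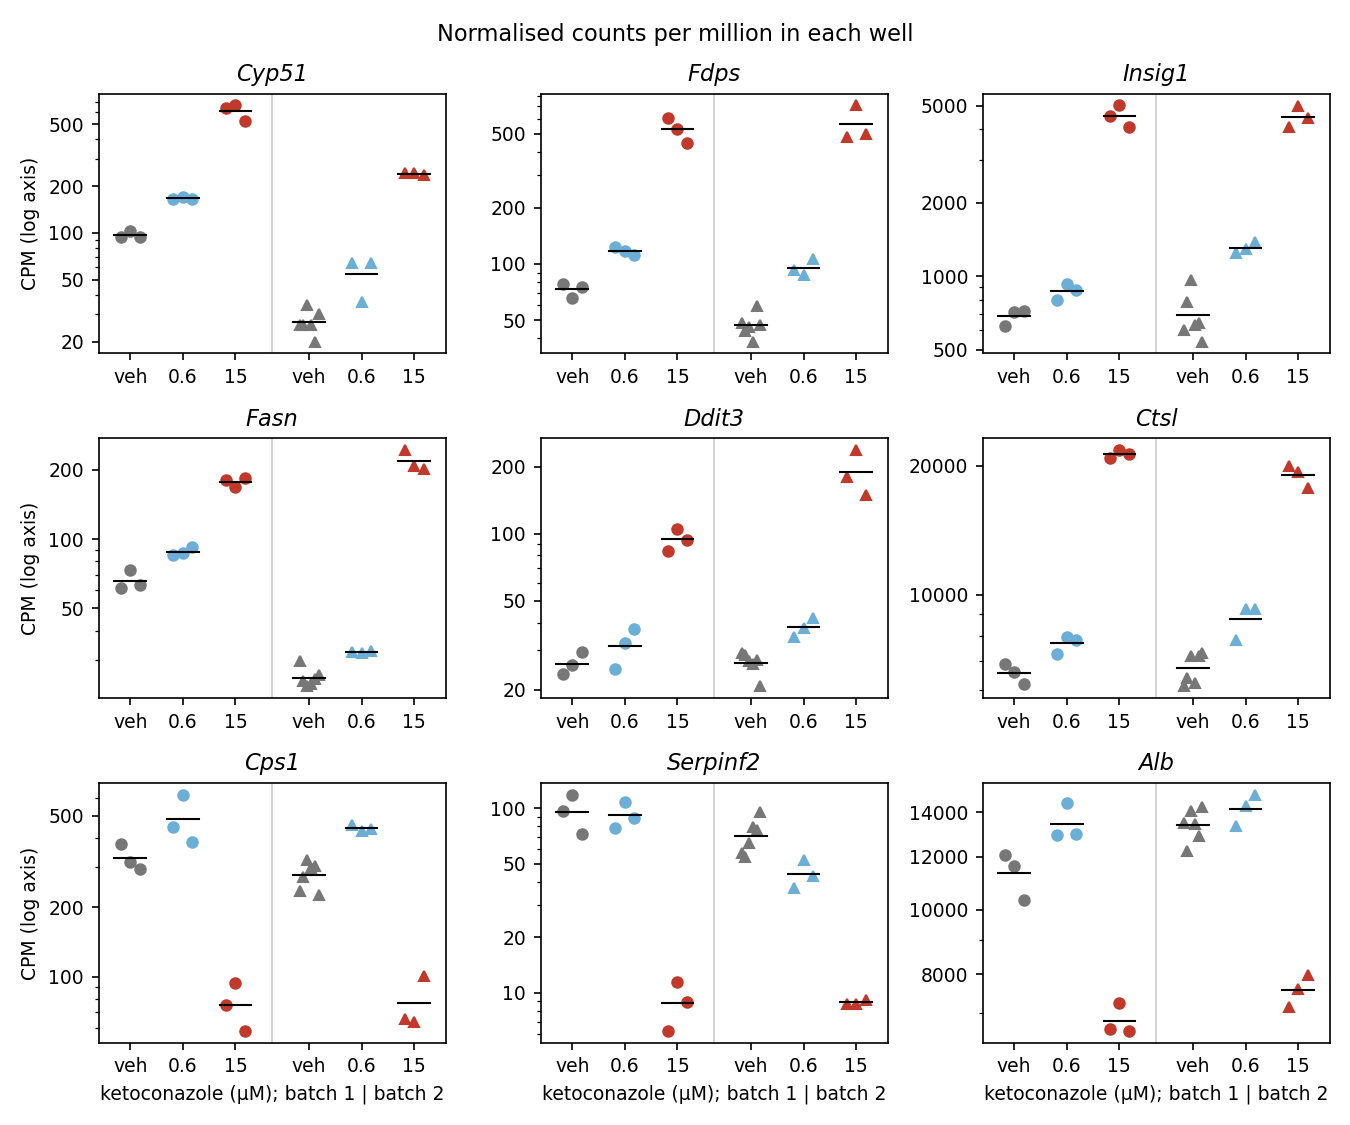
Normalised read counts in CPM (log axis) of 9 genes in each WT well with vehicle, ketoconazole 0.6 µM and ketoconazole 15 µM. Circles are wells of batch 1, triangles wells of batch 2, and short lines the group means. For Cyp51, Fdps, Insig1, Fasn, Ddit3 and Ctsl the wells at 15 µM lie above the vehicle wells of their batch, and for Cps1, Serpinf2 and Alb they lie below.

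Promoter sequences of 3 of these enzymes are shown because the genes rose together with L2FC of 2.99 to 3.28 and yet differ in the letters of factors that act beside SREBP2. They are RefSeq sequences of assembly GRCr8, from 250 bases before to 50 bases after the gene start, whereas the probe reads had been aligned to rn6. Cyp51 lies at chr4:30991443-30991742 on the plus strand, Msmo1 at chr16:29746863-29747162 on the plus strand and Fdps at chr2:176804767-176805066 on the minus strand. Capitals mark matches on either strand to CCAAT, the box bound by NF-Y, or to TCACNCCA, a shortened sterol regulatory element.
Cyp51: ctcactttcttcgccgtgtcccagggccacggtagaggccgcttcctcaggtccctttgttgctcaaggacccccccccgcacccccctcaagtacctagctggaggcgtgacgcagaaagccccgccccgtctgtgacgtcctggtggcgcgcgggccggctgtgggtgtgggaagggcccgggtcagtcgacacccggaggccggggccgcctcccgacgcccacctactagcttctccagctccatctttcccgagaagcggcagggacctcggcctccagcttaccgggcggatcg
Msmo1: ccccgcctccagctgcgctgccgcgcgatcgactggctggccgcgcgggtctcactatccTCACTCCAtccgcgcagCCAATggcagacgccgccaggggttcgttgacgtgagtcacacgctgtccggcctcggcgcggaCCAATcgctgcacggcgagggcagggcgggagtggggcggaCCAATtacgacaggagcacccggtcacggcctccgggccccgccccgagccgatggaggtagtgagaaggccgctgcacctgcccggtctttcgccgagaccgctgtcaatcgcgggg
Fdps: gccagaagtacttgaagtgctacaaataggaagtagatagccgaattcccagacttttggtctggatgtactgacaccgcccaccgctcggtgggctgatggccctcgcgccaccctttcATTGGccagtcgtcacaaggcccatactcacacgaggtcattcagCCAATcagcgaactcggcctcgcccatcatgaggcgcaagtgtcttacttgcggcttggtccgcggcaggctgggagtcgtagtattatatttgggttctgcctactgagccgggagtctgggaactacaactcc
The Cyp51 window held none of these letters, Msmo1 held 3 CCAAT boxes and 1 TCACNCCA, and Fdps held 2 CCAAT boxes. Of the 16 tested enzymes 12 had a promoter entry, and 9 of these 12 held CCAAT at least once, against 10363 of all 27457 promoters (37.7%). Within the list, Nsdhl, with the smallest L2FC, held 5 boxes and Acat2, with the largest, held 0. Of the lists below, CCAAT was in 4 of 6 promoters for sterol uptake and sensing and 7 of 9 for fatty acid synthesis. The full element TCACNCCAC was in 0 of the 12 and in 310 of all promoters (1.13%), and TCACNCCA, whose matches include those of the full element, was in 1 of the 12 and in 1073 of all promoters (3.91%). These letters were chosen after the promoters had been looked at, a match is not a binding site, and no match says only that the letters are not in this window.

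Genes of sterol uptake and sensing went with the pathway in part: of 8 tested, 6 were higher and 1 lower, with a median L2FC of 0.86. Insig1, which retains the SREBP carrier in the endoplasmic reticulum and is itself induced by SREBP2, was at 623, 713 and 722 CPM with vehicle and 4523, 5026 and 4102 CPM with ketoconazole in batch 1, and 540.0 to 966 CPM (median 637) with vehicle and 4086, 4981 and 4469 CPM with ketoconazole in batch 2. It was the most abundant of these transcripts in counts, and the rise of 6.70-fold (L2FC 2.74 ± 0.14, adjusted p = 2.89e-41) was of one size in both batches, with an L2FC of 2.75 and 2.72. Its homologue Insig2 was lower, at 24.3, 25.0 and 23.7 CPM with vehicle and 17.4, 12.8 and 10.9 CPM with ketoconazole in batch 1, and 23.3 to 34.7 CPM (median 27.2) with vehicle and 17.1, 14.9 and 20.5 CPM with ketoconazole in batch 2 (L2FC -0.77 ± 0.15, adjusted p = 2.04e-06). All ketoconazole wells lay under all vehicle wells of their batch, so the pair of Insig genes moved in opposite directions. Stard4, a carrier of cholesterol between membranes, rose (L2FC 1.395 ± 0.13, adjusted p = 1.07e-18), as did Srebf2 itself (L2FC 0.54 ± 0.057, adjusted p = 8.17e-16). Of the proteins that let cholesterol out of lysosomes, Npc2 was at 112, 118 and 95.3 CPM with vehicle and 275, 285 and 245 CPM with ketoconazole in batch 1, and 134 to 174 CPM (median 158) with vehicle and 296, 248 and 338 CPM with ketoconazole in batch 2 (L2FC 1.09 ± 0.10, adjusted p = 6.53e-19) and Npc1 changed less (L2FC 0.63 ± 0.095, adjusted p = 3.34e-09). Srebf2 was added to the named genes after its value was seen.

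Of 6 tested targets of LXR, 1 was higher and 2 were lower, with a median L2FC of -0.26. Abcg1, an exporter of cholesterol, was at 11.3, 13.8 and 8.53 CPM with vehicle and 2.79, 4.37 and 2.92 CPM with ketoconazole in batch 1, and 5.35 to 8.27 CPM (median 7.54) with vehicle and 1.36, 1.30 and 1.88 CPM with ketoconazole in batch 2 (L2FC -1.95 ± 0.25, adjusted p = 5.71e-12). Every ketoconazole well was under every vehicle well. Nr1h3, the gene of LXR alpha, fell less (L2FC -0.66 ± 0.16, adjusted p = 1.45e-04), and Abca1, the exporter that loads apolipoprotein A1, did not pass the test (L2FC -0.33, adjusted p = 0.113).

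Of 12 tested genes of fatty acid synthesis, 11 were higher and 0 lower, with a median L2FC of 1.61, and the groups of all 11 were apart in both batches. Scd2, a stearoyl-CoA desaturase, was at 3.60, 1.61 and 1.71 CPM with vehicle and 32.6, 37.4 and 26.5 CPM with ketoconazole in batch 1, and 0.5003 to 2.28 CPM (median 1.21) with vehicle and 24.7, 24.5 and 26.9 CPM with ketoconazole in batch 2. Its 16.2-fold rise (L2FC 4.02 ± 0.23, adjusted p = 1.18e-35) was the largest of any lipid gene on the lists. The related desaturase Scd was at 18.9, 21.4 and 10.9 CPM with vehicle and 76.4, 86.1 and 56.9 CPM with ketoconazole in batch 1, and 9.13 to 20.4 CPM (median 13.04) with vehicle and 101, 95.8 and 125 CPM with ketoconazole in batch 2 (L2FC 2.59 ± 0.18, adjusted p = 4.06e-29). Both desaturases, which place the first double bond in saturated fatty acids, were thus several times higher in every ketoconazole well. Elovl6, which lengthens palmitate, rose from 1.92, 2.5002 and 1.71 CPM to 23.1, 28.9 and 17.9 CPM in batch 1 and from 0.550 to 1.61 CPM (median 0.985) to 8.63, 13.7 and 10.9 CPM in batch 2 (L2FC 3.48 ± 0.31, adjusted p = 1.61e-20). Fads1, a desaturase of polyunsaturated fatty acids, was at 15.02, 13.9 and 12.1 CPM with vehicle and 73.4, 78.9 and 60.8 CPM with ketoconazole in batch 1, and 7.84 to 11.1 CPM (median 9.94) with vehicle and 71.6, 70.6 and 84.9 CPM with ketoconazole in batch 2 (L2FC 2.71 ± 0.15, adjusted p = 1.24e-37). Fasn, the fatty acid synthase, was at 61.4, 73.4 and 63.4 CPM with vehicle and 179.8, 168 and 185 CPM with ketoconazole in batch 1, and 23.01 to 29.5 CPM (median 24.5) with vehicle and 243, 208 and 201 CPM with ketoconazole in batch 2 (L2FC 2.42 ± 0.16, adjusted p = 1.28e-30). Its ketoconazole wells were at like levels in the batches while the vehicle wells were lower in batch 2, and the difference between the batches passed its own test (batch 2 minus batch 1 1.69 ± 0.18, adjusted p = 2.56e-12). Acss2, which makes acetyl-CoA from acetate, rose too (L2FC 1.65 ± 0.20, adjusted p = 1.84e-12). The member that did not pass was Thrsp (L2FC 0.069, adjusted p = 0.755), and Srebf1, counted with the LXR targets, had an L2FC of -0.36 in batch 1 and 1.01 in batch 2. Thrsp and Srebf1 were named after their values were seen.

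**Figure D2:**
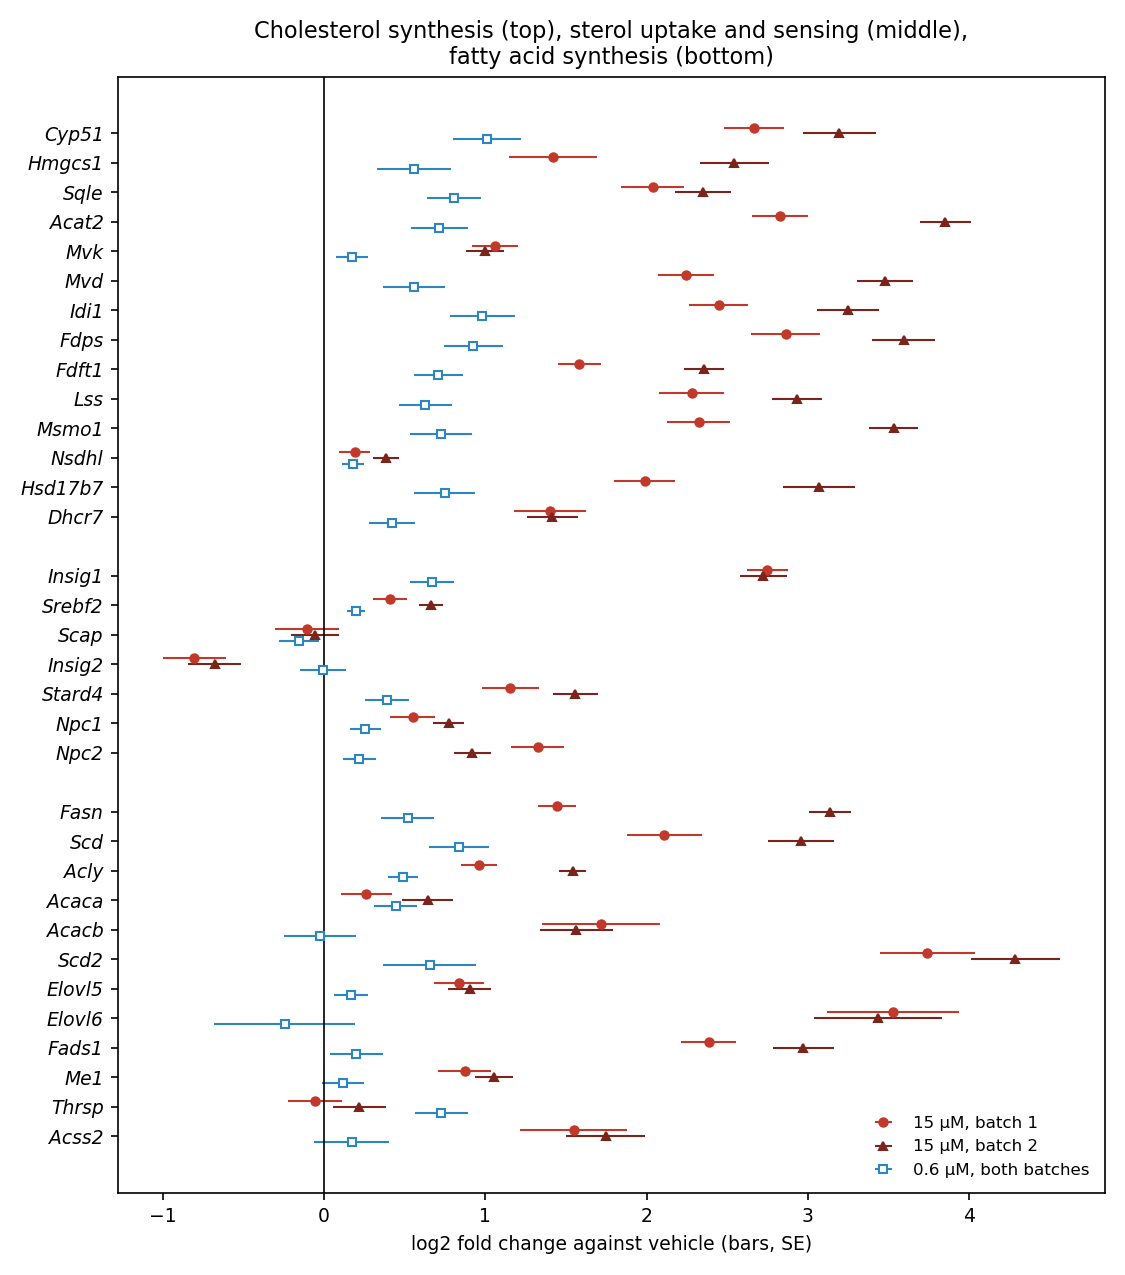
L2FC against vehicle with standard errors for the genes of cholesterol synthesis, sterol sensing and fatty acid synthesis, shown for ketoconazole 15 µM in batch 1 and batch 2 and for 0.6 µM over both batches. The 15 µM points of nearly all enzymes lie right of 0 in both batches, and the 0.6 µM points lie nearer to 0.

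At 0.6 µM far fewer genes differed from vehicle, 165 of 10191 (1.62%), of which 86 (0.844%) were higher. Of the 16 cholesterol enzymes, 11 were among the higher genes at 0.6 µM, with a median L2FC of 0.71 over the 16. Cyp51 stood at 166, 171 and 165 CPM in the 0.6 µM wells of batch 1 and 63.7, 35.7 and 64.5 CPM in those of batch 2 (L2FC 1.01 ± 0.21, adjusted p = 0.00215). All 6 of these wells were between the vehicle and the 15 µM wells of their batch. In the direct test of 15 against 0.6 µM, 2058 genes (20.2%) were higher and 2193 (21.5%) lower at 15 µM, and 14 of the 16 cholesterol enzymes were higher. Nsdhl was not called there (15 minus 0.6 µM 0.10 ± 0.075, adjusted p = 0.313). The fatty acid genes were mostly called at 15 µM alone: 3 of 12 were higher at 0.6 µM, with a median L2FC of 0.32, and 10 of 12 were higher at 15 than at 0.6 µM. Elovl6 had 2.85, 1.53 and 2.32 CPM and 0.273, 0.556 and 0.669 CPM at 0.6 µM in the 2 batches, where its L2FC was -0.24 ± 0.44 (adjusted p = 0.831), and the difference between the concentrations was 3.73 ± 0.37 (adjusted p = 2.13e-17). Thrsp was the reverse, with an L2FC of 0.73 ± 0.16 at 0.6 µM (adjusted p = 0.00525) and -0.66 ± 0.18 for 15 minus 0.6 µM (adjusted p = 0.00150).

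The named genes with the largest differences between the concentrations were near 0 in the vehicle or the 15 µM wells. Their values here are 15 µM against vehicle, with a value at 0.6 µM for Vil1 only. Shc4, an adaptor protein of receptor signalling, had 6 counts over all 9 vehicle wells and 285 over the 6 wells at 15 µM, a ratio per total count of 65.1 with a counting interval of 29.6 to 179. Slc10a1, the sodium-dependent transporter that takes up bile acids from blood, had 142 counts over the vehicle wells and 3 over the ketoconazole wells, a ratio of 34.5 (11.6 to 169). Dhrs3, which reduces retinaldehyde, had 162 and 5 counts. Intervals of this kind are exact at 95% and cover counting error only. Vil1, the actin bundler villin of bile canaliculi, was well measured, at 24.1, 22.3 and 23.2 CPM with vehicle and 1.64, 0.841 and 0.974 CPM with ketoconazole in batch 1, and 15.02 to 22.1 CPM (median 20.000) with vehicle and 0.227, 0.237 and 0.352 CPM with ketoconazole in batch 2. It was 32.7-fold lower with ketoconazole 15 µM (L2FC -5.03 ± 0.23, adjusted p = 5.25e-46) and the L2FC at 0.6 µM was -0.43 ± 0.15 (adjusted p = 0.109). Ank2, an ankyrin that ties membrane proteins to the cytoskeleton, was at 0.601, 0.536 and 0.853 CPM with vehicle and 7.87, 9.93 and 10.9 CPM with ketoconazole in batch 1, and 0.134 to 0.713 CPM (median 0.384) with vehicle and 13.2, 10.5 and 5.28 CPM with ketoconazole in batch 2 (L2FC 4.21 ± 0.34, adjusted p = 6.42e-23), and Aox3, an aldehyde oxidase, was at 15.98, 17.5 and 13.8 CPM with vehicle and 0.492, 0 and 0.390 CPM with ketoconazole in batch 1, and 4.71 to 8.83 CPM (median 6.43) with vehicle and 0.681, 0.355 and 0.235 CPM with ketoconazole in batch 2 (L2FC -4.61 ± 0.63, adjusted p = 1.06e-10).

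The receptors PXR and CAR bind many drugs and induce the enzymes that clear them. The genes of both receptors were lower with ketoconazole. Nr1i2, the gene of PXR, was at 124, 135 and 134 CPM with vehicle and 71.3, 68.0 and 65.4 CPM with ketoconazole in batch 1, and 116 to 141 CPM (median 125) with vehicle and 41.5, 50.3 and 53.3 CPM with ketoconazole in batch 2 (L2FC -1.13 ± 0.14, adjusted p = 6.54e-12), and Nr1i3, the gene of CAR, was at 4.93, 4.82 and 4.78 CPM with vehicle and 1.31, 0.673 and 0.779 CPM with ketoconazole in batch 1, and 2.17 to 6.95 CPM (median 5.58) with vehicle and 1.48, 0.592 and 0.352 CPM with ketoconazole in batch 2 (L2FC -2.53 ± 0.28, adjusted p = 5.82e-15). In both genes the groups were apart in both batches. Of all 7 tested receptors and partners, 0 were higher and 3 lower, with 2 higher and 2 lower in batch 1 alone and 0 and 3 in batch 2 alone. The third lower gene, Arnt, the partner of AhR (L2FC -0.38 ± 0.15, adjusted p = 0.0241), lost its call without ketoconazole replicate 2 of batch 2 (L2FC -0.26, adjusted p = 0.166) or vehicle replicate 2 of batch 1 (L2FC -0.31, adjusted p = 0.0801), and in 3 other fits. Their targets did not move as a group: of 13 tested CAR and PXR targets 5 were higher and 4 lower, with a median L2FC of -0.14, and 5 were called with the wells of a rat and treatment added. Cyp3a23-3a1, a steroid hydroxylase induced by PXR, was at 9.01, 6.61 and 5.12 CPM with vehicle and 36.4, 39.4 and 31.6 CPM with ketoconazole in batch 1, and 3.22 to 4.401 CPM (median 3.66) with vehicle and 17.9, 14.9 and 19.3 CPM with ketoconazole in batch 2 (L2FC 2.26 ± 0.22, adjusted p = 2.12e-17). It was called at 0.6 µM too (L2FC 1.33 ± 0.24, adjusted p = 2.06e-04). Cyp3a2 rose likewise (L2FC 1.52 ± 0.21, adjusted p = 2.50e-10). Near-identical CYP3A and CYP2B genes may share probe reads, so single members of these families are uncertain, and the probes of these 2 CYP3A genes carry other names in the files. Cyp2b1, a target of CAR, had 19 counts over the 9 vehicle wells and 2 over the ketoconazole wells, a ratio of 6.93 (1.67 to 61.3), and Cyp2b2 was at 3.60, 5.71 and 2.05 CPM with vehicle and 0.328, 0.841 and 1.36 CPM with ketoconazole in batch 1, and 0.825 to 3.33 CPM (median 1.95) with vehicle and 0.795, 1.18 and 1.17 CPM with ketoconazole in batch 2 (L2FC -1.48 ± 0.49, adjusted p = 0.00698). In batch 2 the Cyp2b2 wells overlapped, and its call was lost with the wells added (adjusted p = 0.0913). The call of Cyp2b1 was lost without replicate 1 (L2FC -2.15, adjusted p = 0.0644) or 2 (-2.16, adjusted p = 0.0638) of ketoconazole in batch 1, or replicate 2 (-2.28, adjusted p = 0.0522) or 3 (-2.28, adjusted p = 0.0514) in batch 2. Gsta2, a glutathione transferase, was at 30.3, 29.1 and 30.9 CPM with vehicle and 151, 125 and 166 CPM with ketoconazole in batch 1, and 14.5 to 29.2 CPM (median 19.96) with vehicle and 91.4, 85.1 and 59.8 CPM with ketoconazole in batch 2 (L2FC 2.05 ± 0.24, adjusted p = 2.64e-13), and Aldh1a1, a retinaldehyde dehydrogenase, was lower (L2FC -1.59 ± 0.36, adjusted p = 6.31e-05).

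Targets of the aryl hydrocarbon receptor (AhR) were higher in 5 of 6 tested and lower in 1, with a median L2FC of 0.93. The classical targets changed little: Cyp1a1 was at 35.6, 35.2 and 25.8 CPM with vehicle and 60.1, 49.97 and 46.0 CPM with ketoconazole in batch 1, and 27.2 to 40.7 CPM (median 34.2) with vehicle and 33.1, 35.0 and 48.7 CPM with ketoconazole in batch 2 (L2FC 0.53 ± 0.21, adjusted p = 0.0221), and its wells overlapped in batch 2, while Cyp1a2 overlapped in batch 1 (L2FC 0.43 ± 0.19, adjusted p = 0.0421). Both calls rest on single wells: Cyp1a1 lost its call without replicate 1 (L2FC 0.40, adjusted p = 0.117) or 2 (0.47, adjusted p = 0.0605) of ketoconazole in batch 1, and Cyp1a2 lost its call without any 1 of the 3 ketoconazole wells of batch 2 or of the 3 vehicle wells of batch 1, or without vehicle replicate 2 of batch 2 (L2FC 0.29 to 0.43, adjusted p = 0.0518 to 0.218). Both had a positive L2FC at 0.6 µM as well, 0.81 ± 0.20 for Cyp1a1 (adjusted p = 0.0151) and 0.75 ± 0.19 for Cyp1a2 (adjusted p = 0.0124), and neither differed between the concentrations at the threshold (adjusted p = 0.336 and 0.209). Nqo1, a quinone reductase that NRF2 also induces, was clearly apart, at 67.9, 62.7 and 55.6 CPM with vehicle and 206, 194 and 224 CPM with ketoconazole in batch 1, and 53.04 to 62.5 CPM (median 56.9) with vehicle and 208, 157 and 161 CPM with ketoconazole in batch 2 (L2FC 1.67 ± 0.15, adjusted p = 5.94e-21). Cyp1b1 and Tiparp were higher from low levels (L2FC 2.399 and 1.33). Aldh3a1, an aldehyde dehydrogenase, went the other way, at 17.9, 17.5 and 17.4 CPM with vehicle and 0.983, 2.52 and 0.779 CPM with ketoconazole in batch 1, and 6.24 to 16.2 CPM (median 11.7) with vehicle and 1.48, 2.25 and 1.17 CPM with ketoconazole in batch 2 (L2FC -3.09 ± 0.42, adjusted p = 8.19e-11).

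Of 13 tested CYP enzymes that the unstimulated hepatocyte expresses, 0 were higher and 9 lower, with a median L2FC of -1.11. Cyp2d1 was at 81.0, 83.6 and 65.8 CPM with vehicle and 9.83, 12.96 and 7.79 CPM with ketoconazole in batch 1, and 70.4 to 88.8 CPM (median 81.4) with vehicle and 13.96, 12.7 and 12.1 CPM with ketoconazole in batch 2 (L2FC -2.76 ± 0.16, adjusted p = 8.99e-37), and its value includes a probe for Cyp2d3. Cyp4f4, a fatty acid hydroxylase, was at 37.0, 33.9 and 37.2 CPM with vehicle and 8.03, 4.71 and 6.43 CPM with ketoconazole in batch 1, and 27.4 to 34.5 CPM (median 29.4) with vehicle and 3.41, 3.31 and 3.87 CPM with ketoconazole in batch 2 (L2FC -2.79 ± 0.19, adjusted p = 1.02e-28). In both the ketoconazole wells were far below the lowest vehicle well of their batch. Cyp2c11, the main CYP enzyme of the male rat liver, was 161, 169 and 138 CPM with vehicle and 29.3, 25.7 and 22.6 CPM with ketoconazole in batch 1, and 36.2 to 53.9 CPM (median 45.1) and 26.6, 28.3 and 30.2 CPM in batch 2 (L2FC -1.48 ± 0.30, adjusted p = 1.20e-05). The vehicle wells of batch 2 were far lower than those of batch 1 while the ketoconazole wells were alike, and the effect differed between the batches (batch 2 minus batch 1 1.92 ± 0.30, adjusted p = 3.66e-06). Cyp2e1, which oxidises ethanol and paracetamol, did not pass the test (L2FC 0.20, adjusted p = 0.635).

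Steroid, retinoid and bile acid enzymes were lower more often than higher. Ketoconazole is used to lower steroid hormones through CYP17A1, whose gene was under the count minimum here. Of 6 tested genes of steroid hormone and vitamin D metabolism, 1 was higher and 3 lower (median L2FC -0.58). Hsd17b2, which inactivates oestradiol and testosterone, was at 34.6, 40.7 and 32.2 CPM with vehicle and 8.36, 4.04 and 7.21 CPM with ketoconazole in batch 1, and 34.9 to 50.4 CPM (median 38.9) with vehicle and 7.04, 7.10 and 5.401 CPM with ketoconazole in batch 2 (L2FC -2.63 ± 0.25, adjusted p = 2.22e-18). Srd5a1, a 5-alpha reductase, was at 426, 440.2 and 317 CPM with vehicle and 145, 152 and 156 CPM with ketoconazole in batch 1, and 1178 to 1472 CPM (median 1279) with vehicle and 373, 299 and 483 CPM with ketoconazole in batch 2 (L2FC -1.70 ± 0.22, adjusted p = 3.34e-11). Both were apart in both batches. Of 6 retinoid genes 1 was higher and 4 lower (median L2FC -1.09). Rdh7, a retinol dehydrogenase whose probe carries another name in the files, had an L2FC of -1.90 (adjusted p = 2.02e-23).

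For bile acids, 6 genes of synthesis were tested, with 1 higher and 3 lower (median L2FC -0.38), and 2 called without ketoconazole replicate 2 of batch 1 or with the wells of a rat and treatment added. Of 6 genes of transport 1 was higher and 3 lower (median L2FC -0.35). Acox2, which shortens the side chain of bile acid precursors in peroxisomes, was at 20.4, 23.8 and 15.7 CPM with vehicle and 3.44, 2.86 and 2.14 CPM with ketoconazole in batch 1, and 7.67 to 14.4 CPM (median 10.9) with vehicle and 1.59, 2.13 and 1.41 CPM with ketoconazole in batch 2 (L2FC -2.70 ± 0.23, adjusted p = 4.10e-21). Slco1a1, an uptake carrier of organic anions, was lower (L2FC -1.17 ± 0.22, adjusted p = 1.28e-06), as was Nr1h4, the gene of the bile acid receptor FXR (L2FC -0.70 ± 0.15, adjusted p = 2.70e-05). Abcb11, the pump that exports bile acids into bile, did not pass the test, with 89.1, 76.1 and 73.0 CPM with vehicle and 95.0, 81.8 and 93.9 CPM with ketoconazole in batch 1, and 108 to 132 CPM (median 122) with vehicle and 113, 106 and 141 CPM with ketoconazole in batch 2 (L2FC 0.045 ± 0.14, adjusted p = 0.818). Its groups overlapped in both batches. The probe named for Abcb4 was higher (L2FC 2.02 ± 0.27, adjusted p = 6.49e-11), and the ST assay gives the same probe number to Abcb1a, so which of the 2 transporters it reads is uncertain. Cyp7a1, the first enzyme of bile acid synthesis, was under the count minimum.

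**Figure D3:**
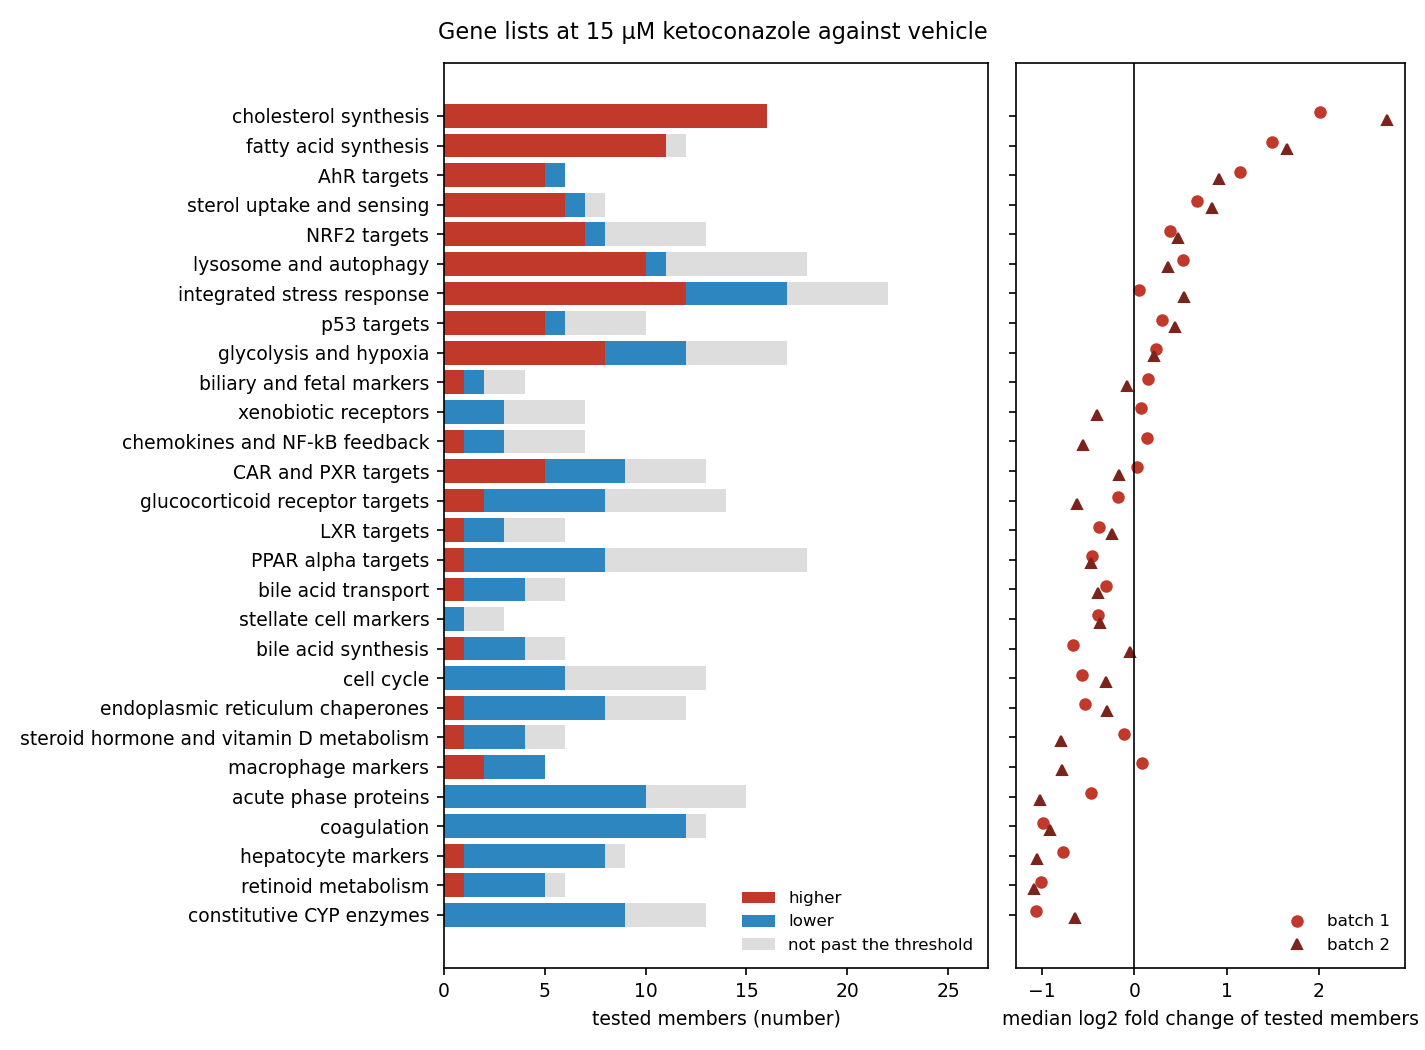
Number of tested genes of each list that were higher, lower or not past the threshold with ketoconazole 15 µM (stacked bars), beside the median L2FC of the list in batch 1 and batch 2 (points). The cholesterol list has 16 of 16 genes higher, and the coagulation list has 12 of 13 lower.

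Stress genes were mixed. Of 22 tested targets of the integrated stress response, in which ATF4 and CHOP act after phosphorylation of eIF2 alpha, 12 were higher and 5 lower, with a median L2FC of 0.30, and 8 were called when the wells of a rat and treatment were added. Ddit3, the gene of CHOP, was at 23.4, 25.7 and 29.3 CPM with vehicle and 83.4, 106 and 94.3 CPM with ketoconazole in batch 1, and 20.7 to 29.2 CPM (median 27.002) with vehicle and 181, 238 and 149.6 CPM with ketoconazole in batch 2 (L2FC 2.44 ± 0.16, adjusted p = 2.39e-30). Every ketoconazole well was above every vehicle well, and batch 2 rose further than batch 1 (batch 2 minus batch 1 0.98 ± 0.21, adjusted p = 8.85e-04). Trib3, a pseudokinase induced by CHOP, was 81.7, 79.8 and 77.9 CPM with vehicle and 77.3, 100.1 and 94.3 CPM with ketoconazole in batch 1, where the wells overlapped, and 45.1 to 61.3 CPM (median 52.9) and 163, 163 and 139 CPM in batch 2. Gdf15, a stress hormone, had the same pattern, with an L2FC of 0.13 in batch 1 and 1.31 in batch 2. Read alone, batch 1 gave 3 higher and 6 lower genes of the 22 (median L2FC 0.045), and batch 2 gave 12 higher and 2 lower (median L2FC 0.54). The difference between the batches passed its own test in 9 of the 22, against 335 of all tested genes (3.29%). Asns, the asparagine synthetase, rose less evenly (L2FC 0.75 ± 0.28, adjusted p = 0.0168), with overlapping wells in batch 2, and without replicate 2 of ketoconazole in batch 2 its L2FC was 0.65 (adjusted p = 0.0577). Fgf21, a hormone of the fasted liver that is also a target of ATF4, was lower, at 44.7, 59.1 and 33.1 CPM with vehicle and 5.74, 7.57 and 4.09 CPM with ketoconazole in batch 1, and 26.3 to 50.03 CPM (median 37.3) with vehicle and 12.3, 8.998 and 14.7 CPM with ketoconazole in batch 2 (L2FC -2.14 ± 0.24, adjusted p = 6.92e-15).

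The next list held chaperones of the endoplasmic reticulum and other targets of the unfolded protein response. Of its 12 tested genes 1 was higher and 7 lower, with a median L2FC of -0.46. Batch 1 alone gave 0 higher and 6 lower, and batch 2 alone 3 higher and 6 lower. With the wells of a rat and treatment added, 5 were called. Hspa5, the main chaperone of that compartment, did not pass the test, with 23.5, 19.1 and 28.8 CPM with vehicle and 23.8, 27.6 and 16.4 CPM with ketoconazole in batch 1, and 5.003 to 13.7 CPM (median 10.7) with vehicle and 7.83, 22.3 and 15.3 CPM with ketoconazole in batch 2 (L2FC 0.29 ± 0.34, adjusted p = 0.496). Edem1, which marks misfolded glycoproteins for disposal, was at 251, 269 and 216 CPM with vehicle and 79.8, 74.5 and 76.0 CPM with ketoconazole in batch 1, and 239 to 273 CPM (median 249.7) with vehicle and 73.0, 68.4 and 85.1 CPM with ketoconazole in batch 2 (L2FC -1.71 ± 0.13, adjusted p = 6.30e-25). Its groups were widely apart, and at 0.6 µM its L2FC was of the other sign (0.49 ± 0.12, adjusted p = 0.0122). Hsp90b1 was lower too (L2FC -0.98 ± 0.15, adjusted p = 6.19e-09), as was Xbp1, a transcription factor of the unfolded protein response (L2FC -1.22 ± 0.22, adjusted p = 4.77e-07).

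Of 13 tested targets of NRF2, the regulator of antioxidant genes, 7 were higher and 1 lower (median L2FC 0.49). Ftl1, the ferritin light chain that stores iron, was at 3318, 2814 and 2655 CPM with vehicle and 11622, 13869 and 11966 CPM with ketoconazole in batch 1, and 3625 to 4518 CPM (median 4161) with vehicle and 13026, 10919 and 13743 CPM with ketoconazole in batch 2 (L2FC 1.84 ± 0.12, adjusted p = 1.56e-32). Hmox1, the haem oxygenase, was at 162, 152 and 183 CPM with vehicle and 619, 551 and 659 CPM with ketoconazole in batch 1, and 262 to 661 CPM (median 313) with vehicle and 793, 868 and 853 CPM with ketoconazole in batch 2 (L2FC 1.49 ± 0.26, adjusted p = 2.90e-07). The members were uneven: Gclc, which limits glutathione synthesis, did not pass (L2FC -0.16, adjusted p = 0.320), Osgin1 was lower (L2FC -1.27 ± 0.12, adjusted p = 7.53e-20), and Gstp1 rose far more in batch 2 (L2FC 1.95) than in batch 1 (0.39).

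Lysosomal genes were higher in 10 of 18 tested and lower in 1, with a median L2FC of 0.42. Ctsl, the protease cathepsin L, was among the most abundant transcripts of these cultures in CPM, at 6914, 6623 and 6189 CPM with vehicle and 20795, 21761 and 21300.5 CPM with ketoconazole in batch 1, and 6121 to 7303 CPM (median 6800.1) with vehicle and 20012, 19290.0 and 17773 CPM with ketoconazole in batch 2 (L2FC 1.57 ± 0.093, adjusted p = 7.69e-35). Gpnmb, a glycoprotein linked to lysosomal storage of lipid, was at 18.7, 26.3 and 23.02 CPM with vehicle and 143, 174 and 169 CPM with ketoconazole in batch 1, and 31.1 to 50.1 CPM (median 41.0) with vehicle and 212, 173 and 223 CPM with ketoconazole in batch 2 (L2FC 2.52 ± 0.18, adjusted p = 2.94e-28). Sqstm1, the autophagy receptor p62, was at 198, 209.8 and 200.04 CPM with vehicle and 515, 522 and 644 CPM with ketoconazole in batch 1, and 174 to 232 CPM (median 209) with vehicle and 892, 806 and 675 CPM with ketoconazole in batch 2 (L2FC 1.72 ± 0.12, adjusted p = 1.44e-29). All 3 were apart in both batches. Asah1, the acid ceramidase, was higher (L2FC 1.08 ± 0.18, adjusted p = 5.00e-08) with overlapping wells in batch 2, Lamp1 changed little (L2FC 0.32 ± 0.10, adjusted p = 0.00463), and Ctsd, another cathepsin, did not pass the test (L2FC 0.14, adjusted p = 0.270).

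Of 10 tested p53 targets, 5 were higher and 1 lower (median L2FC 0.25). Cdkn1a, the cell cycle inhibitor p21, did not pass (L2FC 0.087, adjusted p = 0.725), whereas Bax, which opens mitochondria in apoptosis, rose from 607, 616 and 598 CPM to 715, 792 and 864 CPM in batch 1 and from 525 to 623 CPM (median 547) to 1114, 978 and 937 CPM in batch 2 (L2FC 0.64 ± 0.10, adjusted p = 5.14e-08). Sfn, a 14-3-3 protein that p53 also induces, was not on the list and is among the 12 largest rises, at 0.721, 0.536 and 0.853 CPM with vehicle and 7.70, 8.92 and 6.82 CPM with ketoconazole in batch 1, and 1.30 to 2.77 CPM (median 2.16) with vehicle and 32.2, 12.8 and 13.4 CPM with ketoconazole in batch 2 (L2FC 3.24 ± 0.28, adjusted p = 9.47e-21). Of 13 cell cycle genes 0 were higher and 6 lower (median L2FC -0.39), from low levels throughout. Mki67 was at 20.9, 14.6 and 30.5 CPM with vehicle and 8.52, 10.4 and 7.01 CPM with ketoconazole in batch 1, and 8.54 to 17.97 CPM (median 11.96) with vehicle and 3.52, 4.14 and 4.58 CPM with ketoconazole in batch 2 (L2FC -1.38 ± 0.32, adjusted p = 1.38e-04), and Top2a was lower too (L2FC -2.51 ± 0.44, adjusted p = 2.74e-07).

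Genes of fatty acid oxidation were in part lower. Of 18 tested targets of PPAR alpha, 1 was higher and 7 lower (median L2FC -0.32), and 13 were called when only ketoconazole and vehicle wells were in the fit. Fabp1, which carries fatty acids in the cytosol, was at 44.3, 61.8 and 38.7 CPM with vehicle and 3.93, 4.88 and 4.67 CPM with ketoconazole in batch 1, and 17.4 to 24.5 CPM (median 21.6) with vehicle and 4.31, 3.31 and 3.99 CPM with ketoconazole in batch 2 (L2FC -2.89 ± 0.35, adjusted p = 9.01e-13). In the ST assay Fabp1 did not pass the test, as given below. Creb3l3, a transcription factor of the fasted liver, was lower (L2FC -1.40 ± 0.17, adjusted p = 1.69e-12) and Acot2, a mitochondrial thioesterase, was higher (L2FC 1.27 ± 0.17, adjusted p = 6.76e-11). Cyp4a1, a fatty acid hydroxylase that was near the limit of detection, did not pass (L2FC -1.69, adjusted p = 0.0524).

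Of 14 tested targets of the glucocorticoid receptor, which dexamethasone activates in every well, 2 were higher and 6 lower (median L2FC -0.23), and 5 were called when the wells of a rat and treatment were added. Tat, the tyrosine aminotransferase, was at 33.9, 39.6 and 36.7 CPM with vehicle and 46.9, 43.7 and 41.7 CPM with ketoconazole in batch 1, and 27.3 to 31.9 CPM (median 30.4) with vehicle and 50.2, 50.7 and 47.3 CPM with ketoconazole in batch 2 (L2FC 0.52 ± 0.14, adjusted p = 6.92e-04). Its adjusted p was 0.0649 with those wells added. Fkbp5 did not pass (L2FC 0.023, adjusted p = 0.873). Dusp1, a phosphatase of MAP kinases, was at 624, 679.5 and 505 CPM with vehicle and 261, 267 and 238 CPM with ketoconazole in batch 1, and 836 to 1135 CPM (median 991) with vehicle and 405, 337 and 470.3 CPM with ketoconazole in batch 2 (L2FC -1.29 ± 0.12, adjusted p = 5.51e-19). Of the enzymes of glucose release, Pck1 was at 3.96, 6.43 and 3.41 CPM with vehicle and 2.79, 1.68 and 0.779 CPM with ketoconazole in batch 1, and 2.60 to 5.82 CPM (median 3.60) with vehicle and 1.93, 0.592 and 1.06 CPM with ketoconazole in batch 2 (L2FC -1.49 ± 0.36, adjusted p = 1.88e-04), and G6pc had 31 counts over the vehicle wells and 3 over the ketoconazole wells, a ratio of 7.53 (2.35 to 38.5). The call of G6pc was lost with those wells added (adjusted p = 0.110). Of 17 genes of glycolysis and hypoxia 8 were higher and 4 lower (median L2FC 0.24), and 7 were called with the wells added. Hk2, a hexokinase that is low in normal liver, was at 1.80, 1.43 and 1.19 CPM with vehicle and 6.06, 6.90 and 6.04 CPM with ketoconazole in batch 1, and 0.688 to 1.83 CPM (median 1.60) with vehicle and 8.51, 6.16 and 10.7 CPM with ketoconazole in batch 2 (L2FC 2.39 ± 0.25, adjusted p = 2.11e-16), whereas Pklr, the pyruvate kinase of liver, was at 11.1, 15.4 and 13.5 CPM with vehicle and 2.13, 0.841 and 0.974 CPM with ketoconazole in batch 1, and 7.41 to 11.7 CPM (median 10.1) with vehicle and 1.48, 0.474 and 1.996 CPM with ketoconazole in batch 2 (L2FC -3.04 ± 0.26, adjusted p = 2.68e-21). The groups of both genes were apart in both batches, in opposite directions. Slc2a1, the glucose transporter GLUT1, was higher (L2FC 1.502 ± 0.21, adjusted p = 2.29e-10).

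Many genes of secreted plasma proteins were lower. Of 13 tested genes of coagulation 0 were higher and 12 lower, with a median L2FC of -0.89, and in 12 every ketoconazole well lay below every vehicle well in both batches, against 15.6% of all tested genes. F2, the gene of prothrombin, was at 7692, 7956 and 6628 CPM with vehicle and 3527, 3735 and 3801 CPM with ketoconazole in batch 1, and 7888 to 8648 CPM (median 8165) with vehicle and 4752, 4832 and 5201 CPM with ketoconazole in batch 2 (L2FC -0.89 ± 0.10, adjusted p = 1.39e-13). F10, the gene of factor X, was at 764, 717 and 602 CPM with vehicle and 250.2, 269 and 248 CPM with ketoconazole in batch 1, and 801 to 967 CPM (median 878) with vehicle and 251, 256 and 253 CPM with ketoconazole in batch 2 (L2FC -1.69 ± 0.14, adjusted p = 1.42e-21). Serpinf2, the inhibitor of plasmin, was at 96.1, 118 and 72.1 CPM with vehicle and 6.23, 11.4 and 8.96 CPM with ketoconazole in batch 1, and 54.3 to 94.9 CPM (median 70.7) with vehicle and 8.74, 8.76 and 9.16 CPM with ketoconazole in batch 2. It was 9.23-fold lower (L2FC -3.21 ± 0.23, adjusted p = 4.67e-28), and Serpind1, heparin cofactor II, was at 224, 280.2 and 206 CPM with vehicle and 29.0, 28.3 and 23.6 CPM with ketoconazole in batch 1, and 68.8 to 90.1 CPM (median 85.0) with vehicle and 13.4, 11.1 and 12.2 CPM with ketoconazole in batch 2 (L2FC -2.91 ± 0.19, adjusted p = 1.92e-31). Serpinc1, antithrombin, fell less (L2FC -0.86 ± 0.12, adjusted p = 7.05e-11). The member that did not pass was F9 (L2FC -0.37, adjusted p = 0.0640), named after its value was seen.

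Of 15 acute phase genes 0 were higher and 10 lower (median L2FC -0.74). In single fits, 3 were higher and 9 lower in batch 1, 0 higher and 10 lower in batch 2, and 1 higher and 10 lower of 13 in the ST assay. The 3 chains of fibrinogen fell together, with an L2FC of -1.97 for Fga, -2.11 for Fgb and -1.71 for Fgg. Fgb was at 753, 897 and 674 CPM with vehicle and 206, 181 and 190.1 CPM with ketoconazole in batch 1, and 492 to 802 CPM (median 677) with vehicle and 146, 106 and 165 CPM with ketoconazole in batch 2 (L2FC -2.11 ± 0.19, adjusted p = 9.92e-21). Hp, the gene of haptoglobin, was at 324, 405 and 283 CPM with vehicle and 75.2, 76.1 and 77.5 CPM with ketoconazole in batch 1, and 158 to 272 CPM (median 231) with vehicle and 58.9, 48.9 and 69.2 CPM with ketoconazole in batch 2 (L2FC -2.03 ± 0.19, adjusted p = 1.46e-18), and C3, a complement factor, was lower (L2FC -1.50 ± 0.13, adjusted p = 1.69e-21). Crp did not pass (L2FC 0.41, adjusted p = 0.0842), although its ketoconazole wells were above the vehicle wells in both batches. Of 7 genes of chemokines and their feedback 1 was higher and 2 lower, the latter Cxcl10 at 44.8, 62.7 and 44.7 CPM with vehicle and 11.5, 10.8 and 7.21 CPM with ketoconazole in batch 1, and 31.2 to 57.3 CPM (median 39.3) with vehicle and 4.88, 4.26 and 3.99 CPM with ketoconazole in batch 2 (L2FC -2.67 ± 0.44, adjusted p = 4.96e-08) and Cxcl2 (L2FC -1.21 ± 0.21, adjusted p = 4.79e-07). Icam1, an adhesion molecule, was higher (L2FC 0.41 ± 0.088, adjusted p = 2.46e-05).

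Hepatocyte markers themselves were lower in 7 of 9 tested and higher in 1 (median L2FC -0.97). Alb, the gene of albumin, was at 12078, 11624 and 10332 CPM with vehicle and 6631, 7232 and 6574 CPM with ketoconazole in batch 1, and 12255 to 14278 CPM (median 13464) with vehicle and 7137, 7614 and 7992 CPM with ketoconazole in batch 2 (L2FC -0.83 ± 0.10, adjusted p = 7.77e-13). Cps1, the first enzyme of the urea cycle, fell further, at 377, 315 and 293 CPM with vehicle and 75.5, 93.4 and 58.0 CPM with ketoconazole in batch 1, and 225 to 322 CPM (median 284) with vehicle and 65.4, 63.3 and 101 CPM with ketoconazole in batch 2 (L2FC -1.97 ± 0.17, adjusted p = 8.61e-21), and Ass1, a later enzyme of the same cycle, was higher, from 166, 182 and 137 CPM to 375, 386 and 353 CPM in batch 1 and from 251 to 343 CPM (median 325) to 367, 361 and 380.0 CPM in batch 2. Hnf4a, a transcription factor that maintains the hepatocyte, was lower (L2FC -1.15 ± 0.13, adjusted p = 2.92e-14), as was Cebpa (L2FC -0.97 ± 0.13, adjusted p = 2.17e-10). The summed level of the 9 markers was 15171 to 16810 CPM with ketoconazole against 31332 to 34098 CPM with vehicle in batch 1, and 14717 to 16885 against 32517 to 36615 CPM in batch 2.

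Markers of other liver cells were read in the same wells, and their part in these results was not tested. All 10 macrophage markers were matched and 5 tested, with 2 higher and 3 lower (3 called with the wells of a rat and treatment added), and their sum was 81.3 to 89.5 CPM with ketoconazole against 64.8 to 85.9 CPM with vehicle in batch 1, and 77.9 to 114 against 63.0 to 80.9 CPM in batch 2. Cd68, which lysosomes of many cells contain, and Cd14 were the higher ones (L2FC 1.16 and 0.91). Cd14 made up much of the sum, with a mean over both batches of 33.3 CPM with vehicle and 58.8 CPM with ketoconazole. All macrophage markers but Cd14 and Cd68, tested or not, had a lower mean CPM with ketoconazole than with vehicle. Clec4f, which marks Kupffer cells, was one of them (L2FC -1.50 ± 0.27, adjusted p = 5.63e-07). Of 9 stellate cell markers 3 were tested and 1 was called, or 2 without vehicle replicate 3 of batch 1 or vehicle replicate 2 or 5 of batch 2. Tagln, a marker of contractile cells, was lower (L2FC -2.02 ± 0.27, adjusted p = 4.99e-11). Their sum was 142 to 162 against 217 to 283 CPM in batch 1 and 46.9 to 50.7 against 91.1 to 170.1 CPM in batch 2. None of the 8 endothelial markers reached the count minimum, with sums of 1.19 to 2.10 CPM in the ketoconazole wells and 2.42 to 5.64 CPM in the vehicle wells. Of the biliary and fetal markers 7 of 8 were matched and 4 tested, with 1 higher and 1 lower and sums of 46.6 to 64.1 CPM with ketoconazole and 46.2 to 62.5 CPM with vehicle, and Krt7 had 0 counts in all 15 wells. The higher one, Epcam (L2FC 0.31 ± 0.13, adjusted p = 0.0444), lost its call without ketoconazole replicate 1 or 2 of batch 1 or 3 of batch 2, or without vehicle replicate 2 of batch 1 or 2, 3 or 6 of batch 2 (L2FC 0.22 to 0.31, adjusted p = 0.0553 to 0.198), which left 1 called marker.

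By size alone, several of the largest changes were in genes of no list. Il1r2, a decoy receptor for interleukin 1, was at 1.20, 0.714 and 2.05 CPM with vehicle and 36.4, 46.8 and 36.4 CPM with ketoconazole in batch 1, and 4.43 to 9.55 CPM (median 5.80) with vehicle and 45.3, 85.7 and 56.8 CPM with ketoconazole in batch 2 (L2FC 4.12 ± 0.26, adjusted p = 8.45e-32). It was also called at 0.6 µM (L2FC 1.57 ± 0.28, adjusted p = 2.06e-04). Hamp, the gene of hepcidin, the hormone that limits iron uptake, was at 2.16, 1.07 and 3.24 CPM with vehicle and 20.5, 38.2 and 27.9 CPM with ketoconazole in batch 1, and 0.855 to 2.91 CPM (median 2.395) with vehicle and 28.7, 23.1 and 20.9 CPM with ketoconazole in batch 2 (L2FC 3.68 ± 0.27, adjusted p = 6.07e-27). Its wells were apart in both batches, and at 0.6 µM its L2FC was -0.0076 ± 0.37 (adjusted p = 0.998). A further gene among the 12 largest rises was LOC102549542 (L2FC 3.11 ± 0.26, adjusted p = 3.17e-22), which has no described product in the files. Among the 12 largest falls were Klkb1, the gene of plasma prekallikrein, at 29.4, 33.0 and 32.6 CPM with vehicle and 4.75, 5.22 and 2.53 CPM with ketoconazole in batch 1, and 27.8 to 41.2 CPM (median 34.6) with vehicle and 1.82, 2.96 and 1.88 CPM with ketoconazole in batch 2 (L2FC -3.45 ± 0.21, adjusted p = 1.03e-33), and Cpn2, a subunit of carboxypeptidase N of plasma, at 75.7, 92.9 and 75.9 CPM with vehicle and 11.96, 9.93 and 9.16 CPM with ketoconazole in batch 1, and 23.8 to 38.5 CPM (median 37.3) with vehicle and 2.61, 1.54 and 1.17 CPM with ketoconazole in batch 2 (L2FC -3.38 ± 0.21, adjusted p = 6.35e-33). Reg4 (L2FC -3.65 ± 0.28, adjusted p = 2.01e-25), Serpinb1a (L2FC -3.39 ± 0.29, adjusted p = 2.98e-21), Map3k7cl (L2FC -3.40 ± 0.26, adjusted p = 1.13e-24) and Nnat (L2FC -3.76 ± 0.53, adjusted p = 4.53e-10) fell as well, from low levels with vehicle. Tdrd15, RGD1565117 and AABR07028488.1 were among the 12 as well, with an L2FC of -3.90, -3.81 and -3.66.

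The batches, each 1 rat, were compared through the interaction of batch and treatment, which 335 genes passed (3.29%), or 208 with no filter on low counts. By the difference of L2FC, the 3 largest were Duox2, Cyp2c13 and Stc2. Duox2, an oxidase that makes hydrogen peroxide, was at 0, 0.179 and 0.341 CPM with vehicle and 1.64, 2.02 and 0.974 CPM with ketoconazole in batch 1, and 1.17 to 5.06 CPM (median 3.02) with vehicle and 1.48, 2.01 and 1.06 CPM with ketoconazole in batch 2. Its vehicle wells were near 0 in batch 1 and below the ketoconazole wells, whereas in batch 2 the groups overlapped, and the L2FC of batch 2 minus batch 1 was -4.15 ± 1.01 (adjusted p = 0.00609). Cyp2c13, a male-specific steroid hydroxylase, was at 32.1, 60.7 and 55.9 CPM with vehicle and 1.80, 1.85 and 2.14 CPM with ketoconazole in batch 1, and 3.17 to 6.52 CPM (median 4.16) with vehicle and 3.18, 0.947 and 1.76 CPM with ketoconazole in batch 2 (difference 3.52 ± 0.67, adjusted p = 1.72e-04). Again the vehicle wells set the batches apart more than the ketoconazole wells. Stc2, a glycoprotein hormone that is a target of ATF4, was at 6.61, 8.57 and 10.1 CPM with vehicle and 9.995, 6.56 and 10.3 CPM with ketoconazole in batch 1, and 1.66 to 4.34 CPM (median 3.22) with vehicle and 27.2, 26.8 and 17.96 CPM with ketoconazole in batch 2 (difference 2.89 ± 0.44, adjusted p = 1.46e-06). Here the ketoconazole wells were higher in batch 2 and the vehicle wells lower. Of the cholesterol enzymes 5 of 16 passed this test. The median L2FC of the 16 was 2.01 in batch 1 and 2.74 in batch 2, and all 5 were higher with ketoconazole in both batches.

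**Figure D4:**
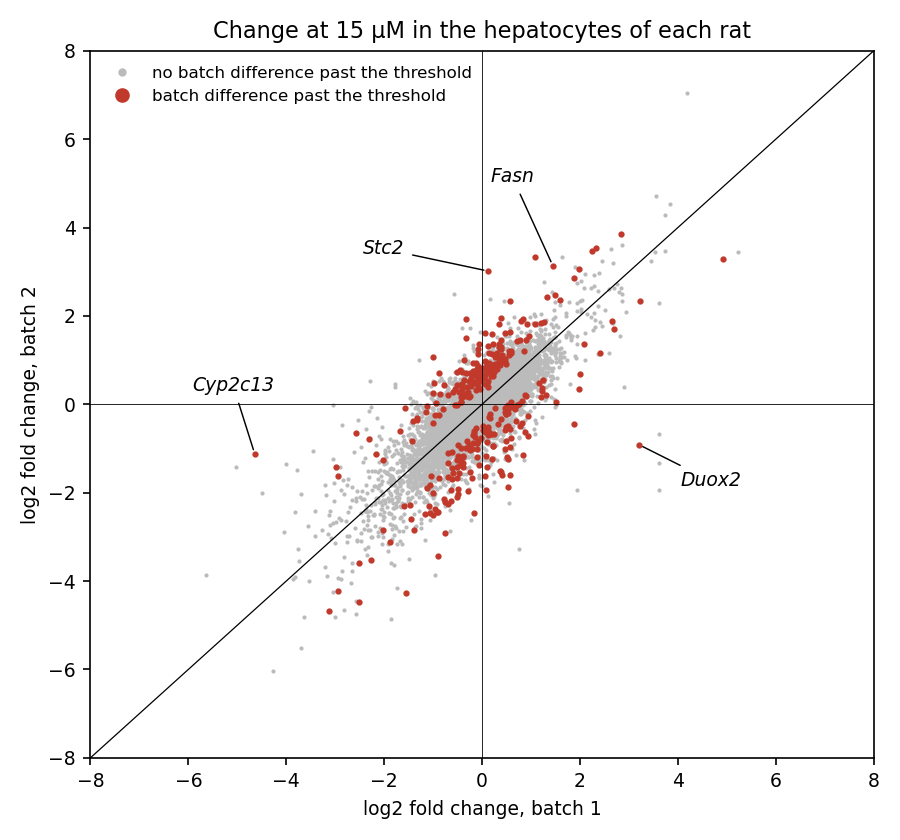
L2FC of ketoconazole 15 µM against vehicle in batch 1 (horizontal axis) and in batch 2 (vertical axis), 1 point a gene. The 335 genes past the threshold for the interaction of batch and treatment are in red, and Duox2 lies on opposite sides of 0 in the 2 batches.

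Against the mean of the 13 other chemicals at their high concentration, 2733 genes (26.8%) were higher with ketoconazole 15 µM and 2549 (25.0%) lower. All 16 cholesterol enzymes and all 12 fatty acid genes were among the higher ones. In Cyp51 the difference from that mean was 2.32 ± 0.13 (adjusted p = 2.25e-36). Its L2FC against vehicle was 2.99 for ketoconazole and -1.27 to 2.35 for the other chemicals, the highest of which was simvastatin at 60 µM, a statin, which also inhibits cholesterol synthesis. Fdps, Msmo1, Scd2, Insig1 and Fasn also had their highest L2FC of the 14 chemicals with ketoconazole. Other lipid genes were higher with another chemical: Acat2 reached 3.94 with acetaminophen, and Hmgcs1 reached 2.44 with simvastatin and 2.25 with WY14643. Scd reached 4.00 with WY14643 and 3.51 with sulfasalazine, and Elovl6 4.38 with WY14643 and 3.99 with naproxen. The median L2FC of the fatty acid list was 1.63 with WY14643 and 1.61 with ketoconazole, and that of the cholesterol list was at most 2.199 with the others, with simvastatin. These values share the vehicle wells, so they are given side by side only. The direct difference from simvastatin 60 µM, added after the values were seen, was 0.64 ± 0.23 for Cyp51 (adjusted p = 0.0149) and 0.90 ± 0.20 for Fdps (adjusted p = 5.62e-05). It was 1.82 ± 0.23 for Scd2 (adjusted p = 3.65e-12), 3.08 ± 0.21 for Gpnmb (adjusted p = 3.93e-29) and -4.93 ± 0.24 for Cyp3a23-3a1 (adjusted p = 4.09e-44). The 2 inhibitors of the pathway thus differed most, of these 5 genes, in Cyp3a23-3a1, whose L2FC with simvastatin was 7.19.

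Downwards, all 18 tested targets of PPAR alpha were lower with ketoconazole than with the mean of the other chemicals. One of those chemicals, WY14643, is an agonist of that receptor. Of the 18, Acot1 and Pdk4 had 6 and 7 counts over the ketoconazole wells and 2 and 10 over the vehicle wells. They reached the count minimum through other groups, so for them the lower value follows from the filter. Among the 6 largest differences from the mean were enzymes of drug and energy metabolism. Cyp2b2 differed by -4.36 ± 0.37, with an L2FC of up to 8.70 with WY14643 at 200 µM. Pck1 differed by -4.09 ± 0.28, with an L2FC of up to 10.6 with caffeine at its high concentration, and Aox3 by -3.81 ± 0.62. Cyp2b1 and G6pc were among the 6 as well, but with 19 and 31 counts over the 9 vehicle wells they reached the count minimum through other chemicals, so for them a lower value with ketoconazole follows from the filter and no difference is given. The mean of the others thus rests in part on single chemicals with very large rises. Coagulation genes, in contrast, were lower than the mean in 8 of 13, and 8 of the 13 other chemicals had a higher median L2FC of this list than ketoconazole.

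**Figure D5:**
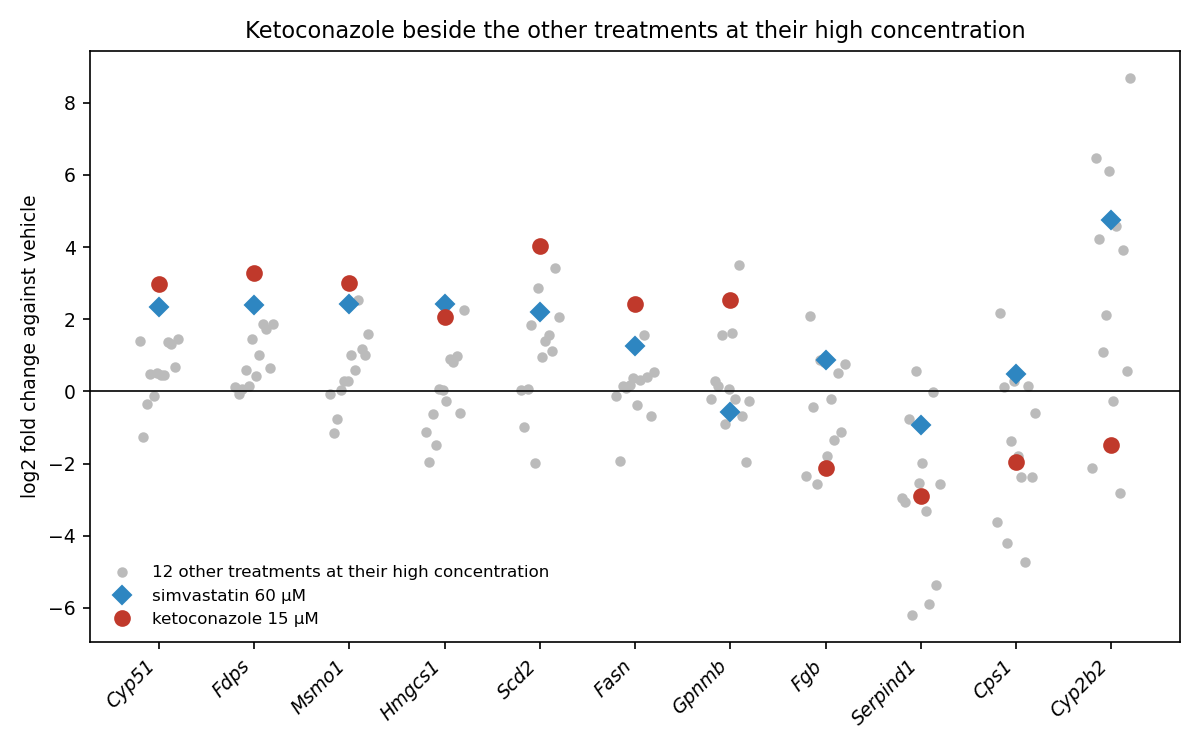
L2FC against vehicle of 11 genes with ketoconazole 15 µM (red), simvastatin 60 µM (blue diamonds) and the 12 other chemicals at their high concentration (grey). Ketoconazole lies at the top for Cyp51, Fdps, Msmo1, Scd2 and Fasn, and within the range of the others for Fgb, Serpind1, Cps1 and Cyp2b2.

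The ST assay read the same lysates in libraries of its own. The study reports probes of a different sequence for only some of the genes that both assays target. Which of the genes named here have such probes was not checked. Of 1760 genes tested there, 501 (28.5%) were higher and 563 (32.0%) lower with ketoconazole 15 µM. All 14 cholesterol enzymes tested in the ST assay were higher, with a median L2FC of 2.64, and 7 of 8 fatty acid genes were. The L2FC of Cyp51 was 2.64 ± 0.20 (adjusted p = 1.44e-26), of Acat2 3.46 ± 0.18 (adjusted p = 8.22e-42) and of Insig1 2.72 ± 0.14 (adjusted p = 8.22e-42). On the lower side, Serpinf2 had an L2FC of -3.01 ± 0.21 (adjusted p = 3.53e-28). Fabp1 differed between the assays, with -0.20 ± 0.51 in the ST assay (adjusted p = 0.750) and -2.89 in the WT assay, and this difference was not tested. The ST assay uses the same wells, so it is a second reading of the RNA and not a further replicate.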

How the data were processed

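Per the labels and the study's methods, TempO-Seq libraries were sequenced, the probe reads were aligned to rn6 with STAR 2.5.3a, and the reads of each probe were counted. The files deposited by the authors hold these raw counts, 1 value per probe and well, with no normalization, and all values are whole. Probes of 1 gene symbol were added here in every fit, so each gene is a sum over its probes. The study did so to compare the assays and for gene sets, and tested single probes otherwise. Genes whose mean over all wells of an assay reached 10 counts were tested (10191 in the WT assay) with edgeR 4.0.16 in R 4.3.3: TMM scaling, quasi-likelihood test, treatment and batch as terms, all wells in the fit, Benjamini-Hochberg adjusted p under 0.05 over all tested genes. Each L2FC is given with its standard error, derived from the F statistic. Single batches were fitted without the batch term, and the interaction with 1 group per treatment and batch. DESeq2 1.42.0 served as an alternative. The test was tried on simulated counts with known changes. No 2 wells held identical values.

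The members and the 29 gene lists were chosen with earlier results of these data known. Of 409 list members 54 had no probe matched by symbol, and 10 were matched under another symbol. Named genes are the 12 largest rises and falls among genes called with one sign in all 3 fits and at a mean of at least 5 CPM, of each list the first 2 tested members and up to 4 more with the largest called L2FC of one sign in both batches, the 3 largest batch differences, and the 6 largest differences from 0.6 µM and from the other chemicals. Some genes are not reported here. Depth was 5231801 to 8631993 counts per ketoconazole WT well and 1421113 to 1915729 per ketoconazole ST well. Promoters are RefSeq sequences of GRCr8.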

Additional observations from a re-analysis of the deposited data

Results flagged for a closer look

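In each batch 2 vehicle group of 6 wells, a named gene was singled out when 1 well stood away from the other 5 by Dixon's criterion at 95%. Chance alone marks about 1 in 20 groups, and 7 of 161 genes were marked. The wells were those of Hamp at 0.855 CPM, Slc10a1 at 3.33 CPM, Gdf15 at 50.8 CPM, Cdkn1a at 10.997 CPM, Mdm2 at 59.4 CPM, Bax at 623 CPM and Apoa1 at 9422 CPM. Vehicle replicates 5 and 6 of batch 2 each gave 2 of these values, and replicates 1, 2 and 3 gave 1 each.

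A further 18 named genes were singled out because the effect of ketoconazole differed between the batches in the interaction test, with the following L2FC of batch 2 minus batch 1. It was positive for 13 genes: Cyp2c13 with 3.52, Stc2 with 2.89, Cyp2c11 with 1.92, Fasn with 1.69, Gstp1 with 1.55, Akr1d1 with 1.498, Trib3 with 1.39, Fgf21 with 1.30, Mvd with 1.22, Msmo1 with 1.20, Gdf15 with 1.17, Acat2 with 1.01 and Ddit3 with 0.98. It was negative for 5 genes: Duox2 with -4.15, Cd163 with -2.02, Il1r2 with -1.64, Cpn2 with -1.29 and Akr1c14 with -1.08. Of these 18 genes, 2 had an L2FC of opposite signs in the 2 batches. Batch holds the rat, the plates and the sequencing run together, so these cannot be told apart.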

How the results depend on the processing

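No paired analysis was possible because the replicate numbers follow accession order and tie no wells together, so batch entered as a term instead of a replicate block. DESeq2, RLE size factors and single probes moved no count of genes and no list by over 1.5 times, and DESeq2 called 5274 genes, of which 5201 were among the 5226 with the same direction (99.5%). With the wells of a rat and treatment added, 3656 genes were called, 3653 of them in the same direction. In that fit 5 CAR and PXR targets, 2 genes of bile acid synthesis and 5 glucocorticoid receptor targets were called. So were 8 genes of the integrated stress response, 5 of the list with the chaperones and 7 of glycolysis and hypoxia. Of the biliary and macrophage markers 1 and 3 were called, and the other 20 lists stayed within 1.5 times. Cyp2b1, Cyp2b2, Cyp1a1, Cyp1a2, Tat, G6pc and Asns were among the 15 named genes that lost the call.

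Only genes at an absolute L2FC of at least 1 numbered 340 higher and 828 lower, 1081 in batch 1, 1381 in batch 2, 1008 against 0.6 µM, 639 against the other chemicals, 370 in the ST assay and 126 in the interaction. Lists whose count then moved kept 4 genes of sterol uptake, 1 LXR target, 2 of bile acid synthesis and 4 glucocorticoid receptor targets. Kept as well were 3 of the integrated stress response, 2 of the list with the chaperones, 5 NRF2 targets and 4 lysosomal genes. The remaining ones kept 5 PPAR alpha targets, 1 p53 target, 5 of glycolysis, 6 of coagulation and 4 hepatocyte markers. Of the biliary and macrophage markers 1 and 2 were kept. With no filter on low counts the interaction called 208 genes in place of 335, and 1 biliary marker was called. With only ketoconazole and vehicle wells in the fit, 13 PPAR alpha targets in place of 8 and 2 stellate markers in place of 1 were called, and Ctsd (adjusted p = 0.0491), Crp (adjusted p = 0.000837) and Cyp4a1 (L2FC -1.62, adjusted p = 0.000333) passed. With the vehicle wells of the same plate alone in batch 2, 1 biliary marker was called, and Cyp1a1 (adjusted p = 0.0756), Cyp1a2 (adjusted p = 0.051) and Lamp1 (adjusted p = 0.0515) lost the call.

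Leaving out 1 well at a time gave 2360 to 2553 higher and 2527 to 2666 lower genes. Bile acid synthesis had 2 to 4 called genes (2 without ketoconazole replicate 2 of batch 1), the biliary markers 1 to 2 and the stellate markers 1 to 2, and all other lists stayed within 1.5 times. The sign of 6 named genes that passed the test in no fit turned. Their L2FC over these fits was -0.34 to 0.39 for Cyp2e1, -0.073 to 0.30 for Rarb, -0.015 to 0.077 for Abcb11, -0.049 to 0.068 for Fkbp5, -0.024 to 0.18 for Cdkn1a and -0.27 to 0.33 for Duox2. Rarb was also at -0.033 with only ketoconazole and vehicle wells in the fit and at -0.0073 with vehicle wells of the same plate, and Duox2 at -0.092 in the former. Cyp4a1 also passed the test with DESeq2 (adjusted p = 0.00241) and without vehicle replicate 1 of batch 1 (adjusted p = 0.0393) or 2 of batch 2 (adjusted p = 0.0461), and Abca1 without ketoconazole replicate 3 of batch 1 (adjusted p = 0.0362) and with vehicle wells of the same plate (adjusted p = 0.0488). The cause of these changes was not tested. Few reads limit Cyp2b1, Slc10a1, G6pc, Dhrs3 and Shc4, which were near 0 in 1 group, and each batch is 1 rat.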
